A study of Homo sapiens with 45 samples.

Results

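Triplet 12 is the name used here for 3 of the 45 libraries of the series, those with the library numbers 46, 36 and 4, which stand next to each other in columns 34 to 36 of the expression matrix. It was set against triplet 8, the libraries 5, 40 and 23 in columns 22 to 24, and against the other 39 libraries. All libraries came from HCT116-VR, a derivative of the colorectal carcinoma cell line HCT116 that resists the histone deacetylase inhibitor vorinostat, with cells harvested 48 h after transfection, and no label names vorinostat treatment of these cultures. Each of 14 conditions received 1 siRNA pool (Dharmacon siGENOME SMARTpool) at 40 nM with the lipid Dharmafect 2, the mock condition received lipid only, and every condition had 3 libraries from independent experiments. The aim of the series was to learn what loss of each candidate resistance gene does to these cells, with mock as the control.

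The conditions of these 6 libraries are known only by the order of the columns. The 45 columns fall into 15 adjacent triplets, and in 44 of 45 libraries the 2 nearest libraries by correlation were those of the same triplet. With the 15 condition names in alphabetical order, the triplet with the lowest median of a target gene was the triplet at the place of that name for 11 of the 11 target genes in the matrix. For BEGAIN the margin was narrow, with a log2 median of -1.31 against -1.26 in the next lowest triplet, and it was wider for every other target. By that order triplet 12 is at the place of siRGS18 and triplet 8 at the place of mock, but RGS18 is not in the matrix, mock has no target, and so neither place can be checked by a target gene. The sample list of the study gives library 46 the same name, siRGS18 (replicate 3), and the other 5 libraries other names: library 36 as siBEGAIN replicate 3 and library 4 as siCDK10 replicate 1, with libraries 5, 40 and 23 as siDPPA5 replicate 1, siEIF3L replicate 3 and siGLI1 replicate 2. The target genes went against that list. EIF3L, a subunit of the translation initiation factor eIF3, had a log2 value of 9.38 in library 40, against a lowest value of 2.79 in the other 39 libraries, and CDK10, a cyclin-dependent kinase, had 4.17 in library 4 against a lowest value of 0.37. Since no label ties the columns to conditions, the differences below describe these libraries without a test or p-value, and they cannot be tied to loss of a detected target.

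RGS18 lies on chromosome 1 from 192127592 to 192154945 (GRCh37, plus strand) and encodes a regulator of G protein signalling, a protein that speeds up GTP hydrolysis by Gα subunits and so ends signalling from their receptors. It is best known from megakaryocytes and platelets. Small interfering RNAs work through Argonaute proteins, which hold the guide strand. Full pairing leads to cleavage of the target, while pairing of only the seed, the bases near the 5′ end of the guide, to a 3′ untranslated region (3′UTR) can lower other transcripts, as a miRNA does. A SMARTpool is a mixture of several duplexes against 1 gene. The sequences of the siRNAs were not used here.

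Between 9928620 and 13115174 reads lay behind triplet 12 and between 8884433 and 14684828 behind triplet 8, within the series range of 7569592 to 21149597. Values are log2 CPM (read counts scaled to the size of the library) as deposited, with 0.5 reads added to each count, and the genes compared reached log2 0 in 3 or more libraries. A difference is the median of the 3 libraries of triplet 12 minus the median of the 3 of the reference. After each gene was centred over the 45 libraries, Pearson's r across all genes, which are not independent of each other, was 0.35 to 0.43 within triplet 12 and 0.31 to 0.34 within triplet 8. Between the 2 triplets it was 0.023 to 0.11 in 8 of 9 pairs and 0.27 between libraries 36 and 40, and the nearest library of 40 was library 7 of triplet 5 (r = 0.35). Libraries 36 and 40 are both the second column of their triplet. Over all pairs of triplets, deviations from the triplet mean had a median r of 0.10, 0.16 and 0.053 between columns at positions 1, 2 and 3 of their triplets, against -0.049 between columns at other positions. The 3 deviations of a triplet cancel by construction, so the negative value is no independent baseline. The labels name no batch, and what columns at 1 position share was not tested.

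The labelled cell type was checked against marker genes. In bulk RNA fewer cells of a type and less RNA per cell cannot be told apart. Of 12 markers of colon epithelium, 8 were in the matrix, and their summed level was 2596 to 2922 CPM in triplet 12, against 3858 to 4178 in triplet 8 and 2752 to 4833 in the other 39 libraries. Of 14 markers of blood cells and megakaryocytes, among them ITGA2B, PF4 and PTPRC, only CD68 was listed, at 3.22 to 4.96 CPM in triplet 12 and 2.69 to 3.61 in triplet 8. Of 11 markers of fibroblasts and endothelium only COL1A1 was listed, at 14.4 to 16 CPM in triplet 12 and 6.54 to 12.5 in triplet 8, without overlap. KRT20, CDX1, VIL1 and LGALS4 were not listed.

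Triplet 12 stood close to triplet 8. Of the genes compared, 89 (0.576%) were at least 2-fold higher and 160 (1.04%) at least 2-fold lower in triplet 12 with no overlap of the 3 and the 3 values. Those 249 genes were the fewest of any triplet set against triplet 8, as the other 13 triplets gave 317 to 2651 against these shared libraries. Without the demand of 2-fold, 2325 genes (15.1%) were higher and 2576 (16.7%) lower with no overlap, and these shares are the background for every list below. Against all of the other 42 libraries, the 3 libraries of triplet 12 were higher for 16 genes (0.104%) and lower for 65 (0.421%). The other 14 triplets had 5 to 1449 genes above and 4 to 1357 below the remaining 42, and only triplet 8 had fewer than triplet 12 on either side.

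**Figure D1:**
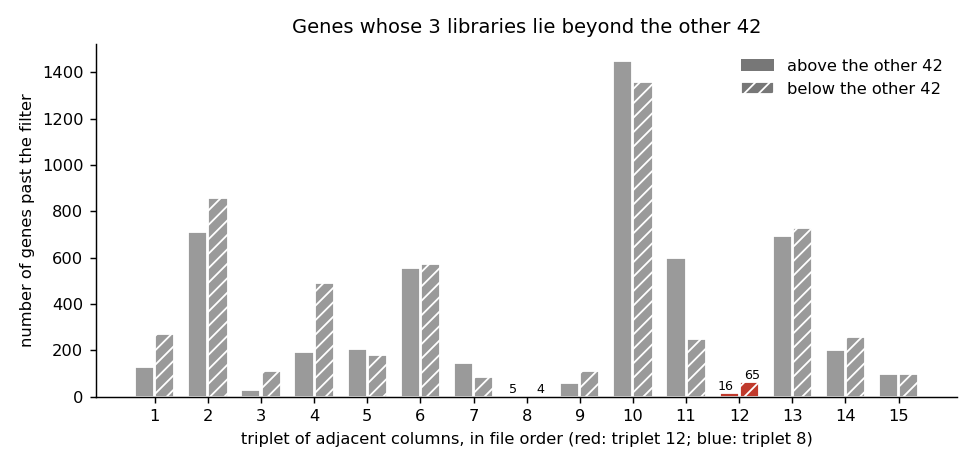
Number of genes, on a linear axis, whose 3 libraries all lie above (plain bars) or below (hatched bars) the other 42 libraries, for each of the 15 triplets of adjacent columns. Triplet 12 (red) has 16 genes above and 65 below, the fewest after triplet 8 (blue) with 5 and 4, while triplet 10 has 1449 and 1357.

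The 65 genes below all other libraries were picked against all other libraries and not against triplet 8 alone. Most were well measured, with a median log2 value of 6.13 in triplet 8, and 63 of 65 are protein coding. Their median difference was -0.69 from triplet 8 and -0.78 from the median of the 39 other libraries, and 12 of them were at least 2-fold lower than triplet 8. The gap to the next lowest of the other 42 libraries was 0.5 or more for 4 genes and under 0.1 for 26. At the edge, the smallest gap was 0.0043 (MON2), and just outside MPHOSPH6 and PRPS1 had gaps of -0.0052 and -0.0095.

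A short sequence recurred in the 3′UTRs of these genes. Of all 16384 heptamers, TACACGT was the one with the largest excess: it was in the sense strand of 17 of the 63 3′UTRs (27.0%) that GENCODE gives for the 65 genes, against 320 of 11919 (2.68%) for all genes past the filter, while the median 3′UTR length was 1376 and 1338 bases. Second by excess was TTTTCTT, in 43 of 63 (68.3%) against 45.8% of all. The heptamer ACACGTA shares the hexamer ACACGT with TACACGT and was only at rank 6 by excess, in 13 of 63 (20.6%) against 315 of 11919 (2.64%). It was taken because it had the lowest mean shift, the mean difference from the 39 libraries of genes with a heptamer minus that of genes without. Together TACACGT and ACACGTA make the octamer TACACGTA, which was in 6 of 63 (9.52%) against 67 of 11919 (0.562%). The hexamer was in 30 of 63 (47.6%) against 1418 of 11919 (11.9%). These letters were picked from these same libraries after their values were seen, so the counts and the shifts below are a description and no test. A guide strand with the bases ACGUGUA at positions 2 to 8 would pair with TACACGT. None of 2545 human mature miRNAs in RefSeq has that seed, and whether an siRNA of the pool has it was not tested.

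The sites are shown for the genes on which the pattern turns, as 30 bases of the sense strand from the GRCh37 genome with the octamer, or the heptamer where the eighth letter differs, in capitals. The first 6 genes hold the octamer, the next 3 the heptamer TACACGT and the last 2 the heptamer ACACGTA.
ANKRD27, chr19:33088103-33088132, minus strand: tggcctagagcTACACGTAtatgggtttgt
CD81, chr11:2418196-2418225, plus strand: tattactctgcTACACGTAgcctttttact
ABL1, chr9:133762835-133762864, plus strand: ccactatatttTACACGTAtctcttggtat
KANK1, chr9:745867-745896, plus strand: ccatgaagaacTACACGTAacatcatcatt
DRG2, chr17:18010636-18010665, plus strand: aaaaatacaaaTACACGTAccccaggaagg
ATG14, chr14:55835765-55835794, minus strand: gaggggtgagtTACACGTAttttattcatg
CHSY1, chr15:101716081-101716110, minus strand: tgccattttaaTACACGTcattggagggct
STX10, chr19:13254899-13254928, minus strand: cctgtgccttaTACACGTgccaacctggaa
AP2M1, chr3:183901818-183901847, plus strand: gcttcattttgTACACGTgtgacttcgtcc
IGFBP2, chr2:217528926-217528955, plus strand: ccagttctgacACACGTAtttatatttgga
RAB7A, chr3:128532300-128532329, plus strand: aaaccaagaacACACGTAggccttcaacac
The letters around the sites differ from gene to gene, and the sites lie at different places in the 3′UTR, from base 46 of 1376 in RAB7A to base 1776 of 1992 in ABL1.

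CD81 and CHSY1 had the widest gaps. CD81, a tetraspanin of the cell surface (chromosome 11, 2397407 to 2419032), had log2 values of 6.62, 6.61 and 6.65 in libraries 46, 36 and 4 and of 7.75, 7.79 and 7.79 in libraries 5, 40 and 23. The other 39 libraries lay between 7.42 and 8.35, so the 3 libraries were alone in their range, 0.77 below the next. CHSY1, which makes chondroitin sulfate chains (chromosome 15, 101715932 to 101792253), had 4.33, 3.90 and 4.32 against 6.29, 6.14 and 6.14 in triplet 8. The lowest of the 39 other libraries had 5.09, and the medians differed by -1.82. Both genes hold a site, CD81 the octamer at base 111 of a 3′UTR of 531 bases and CHSY1 the heptamer at base 1494 of 1661.

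The genes with the next widest gaps have different roles. STX10, a syntaxin of the trans-Golgi network, had 5.10, 4.92 and 5.11 against 6.30, 6.21 and 6.32 in triplet 8. AP2M1, the medium subunit of the clathrin adaptor AP-2, had 8.05, 7.99 and 8.10 against 8.98, 8.93 and 8.91. CHMP6, a subunit of the ESCRT-III complex, had 2.48, 1.96 and 2.46 against 3.71, 3.57 and 4.0, and has no hexamer in its 3′UTR. In each of these genes the 3 libraries lay below all 42 others, by 0.45 for STX10 and AP2M1 and by 0.51 for CHMP6. RAB7A, a GTPase of late endosomes, and ARPC2, a subunit of the actin-nucleating Arp2/3 complex, were also below all 42 and differed from triplet 8 by -0.68 each.

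YTHDF1, a reader of N6-methyladenosine in mRNA, had 5.56, 5.53 and 5.65 against 6.53, 6.37 and 6.37, with a gap of 0.69 to the other 42 libraries. PFKP, the platelet isoform of phosphofructokinase, had 7.90, 7.92 and 7.97 against 8.63, 8.71 and 8.79. KANK1, an adaptor between adhesions and the cortex, had 4.08, 4.15 and 4.30 against 5.27, 5.31 and 5.19, and PKN2, a serine/threonine kinase, had 5.84, 5.97 and 6.0 against 6.74, 6.94 and 6.83. BAHD1, a heterochromatin protein, completed the 10 genes with the widest gaps, at -0.63 from triplet 8. Of these 10 genes, 8 hold the hexamer or a longer form of it, and CHMP6 and PFKP do not.

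**Figure D2:**
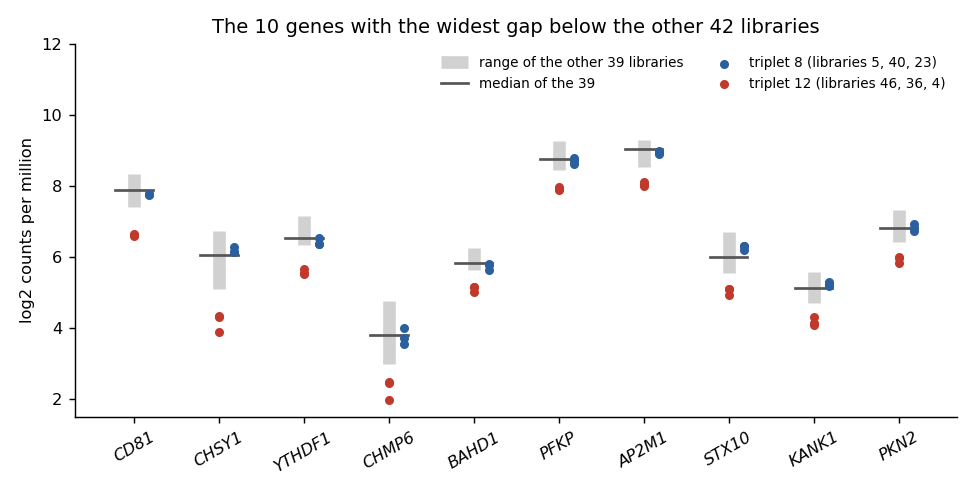
Log2 CPM of the 10 genes with the widest gap below the other 42 libraries: red points are libraries 46, 36 and 4, blue points libraries 5, 40 and 23, grey bars the range and dark lines the median of the other 39. In every gene the red points lie under the grey bar, by 0.77 for CD81 and 0.76 for CHSY1, while the blue points lie within or near it.

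Genes with longer forms of the site had lower medians over all genes, not only over the 65. For the 67 genes with the octamer the median difference from triplet 8 was -0.32, and 39 of them (58.2%) were lower and 4 (5.97%) higher with no overlap. For 239 genes with ACACGTA alone it was -0.16, for 244 with TACACGT alone -0.11, and for 859 with the hexamer only -0.065. For 10501 genes with none of these it was 0.011, with 16.3% lower and 17.6% higher. The median 3′UTR length was 2895 bases in the octamer class, 2766 to 3607 in the 3 other classes and 1181 in genes with none. Within 3′UTRs of 1500 to 5000 bases the medians from triplet 8 were -0.32 (44 genes), -0.19 (133), -0.12 (119), -0.067 (482) and -0.012 (3784 with none), in a comparison chosen after seeing the data. Against the 39 other libraries the medians over 3′UTRs of all lengths were -0.28, -0.14, -0.060, -0.035 and 0.023, in the same order of classes. Within 1500 to 5000 bases they were -0.28, -0.18, -0.043, -0.055 and 0.0045. There genes with TACACGT alone were shifted less than genes with the hexamer only. Without the 65 genes, 61 octamer genes had a median difference of -0.28 from triplet 8 and -0.21 from the 39 libraries. ACACGTA had been picked by its mean shift against the 39 libraries over all 3′UTRs. Leaving out the 65 genes therefore does not make the shift of the octamer genes independent of the choice of the letters. Of 15858 heptamers in at least 100 3′UTRs, ACACGTA and TACACGT had the lowest and second lowest mean shift against the 39 libraries, and without the 65 genes ACACGTA was still at rank 1 and TACACGT at rank 3, behind ACTCGTA.

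**Figure D3:**
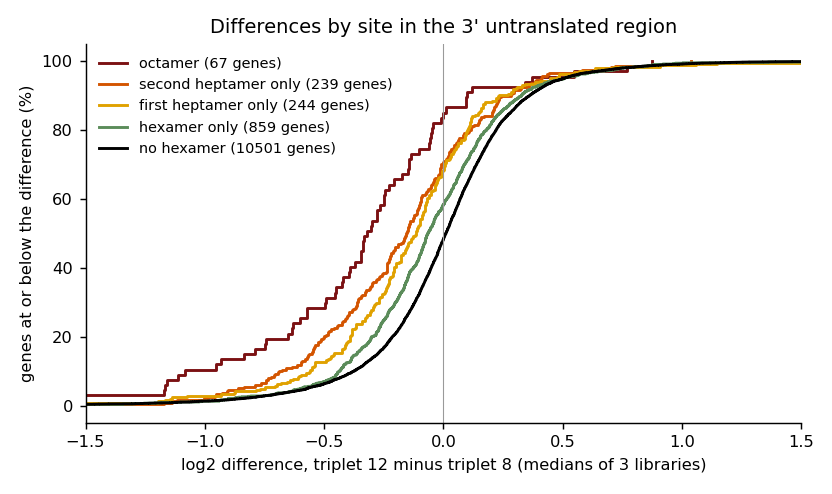
Cumulative share of genes (%) against the log2 difference of triplet 12 from triplet 8, by the longest form of the site in the 3′UTR. The curve of the 67 octamer genes lies farthest left (median -0.32), the curves of the 2 heptamers (-0.16 and -0.11) and the hexamer (-0.065) follow in order, and the 10501 genes without the hexamer centre at 0.011.

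The octamer genes were lower in each of the 3 libraries, whose values had also served to pick the letters. Relative to genes without the hexamer, the octamer genes had a median of -0.32 in library 46, -0.32 in library 36 and -0.23 in library 4, each value taken from the median of the gene over the 39 other libraries. The same value was 0.034, -0.027 and 0.0053 in libraries 5, 40 and 23 and ran from -0.16 to 0.11 over the 39 others. None of the other 42 libraries reached the values of triplet 12, and the lowest of them were the libraries of triplet 10. Since the letters were picked by low values in triplet 12, this order is a description and no test. The 39 libraries also set the baseline of each gene, so their own values centre near it by construction. The reverse complement TACGTGTA was in 89 3′UTRs, in none of those of the 65 genes, and its genes had a median difference of -0.058 from triplet 8, close to the -0.065 of the hexamer alone. Where the octamer was in the coding sequence and no hexamer in the 3′UTR (34 genes), the median difference was -0.045.

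**Figure D4:**
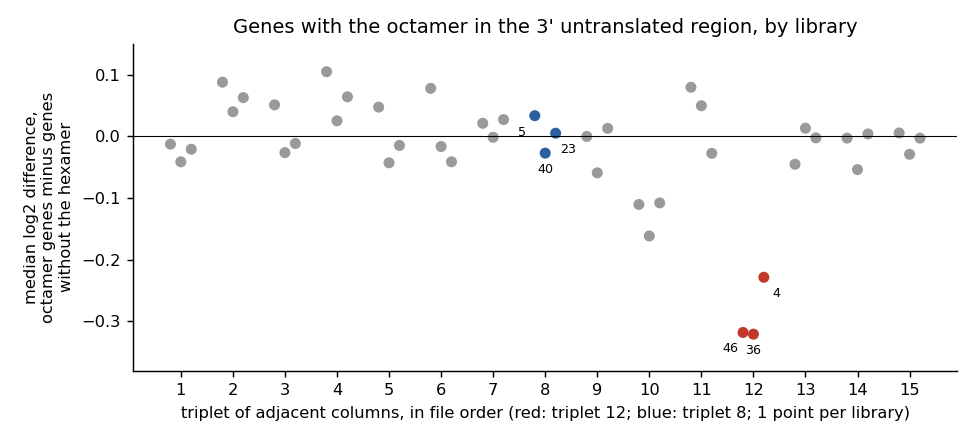
Median log2 difference of the 67 octamer genes, relative to genes without the hexamer, for each of the 45 libraries by triplet; each point is 1 library, and values are taken from the median of each gene over the 39 libraries outside triplets 8 and 12. Libraries 46, 36 and 4 (red) lie at -0.32, -0.32 and -0.23, below the other 42, which lie between -0.16 and 0.11. The octamer was picked by low values in the red libraries, so their place is no test.

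Octamer genes were not all lower. ANKRD27, a guanine nucleotide exchange factor for Rab proteins (chromosome 19, 33087912 to 33167503), had 5.22, 5.17 and 5.43 in triplet 12 and 6.85, 6.77 and 6.88 in triplet 8, the lowest difference among them at -1.63. ABL1, a tyrosine kinase, had 5.62, 5.48 and 5.74 against 6.78, 6.60 and 6.83, where the lowest of the 39 others was 5.65. KCTD12, an auxiliary subunit of GABA-B receptors, had 3.01, 2.84 and 3.31 against 4.53, 4.54 and 4.62. In all 3 genes the 2 triplets lay more than 2-fold apart, but libraries outside them reached the level of triplet 12 for ABL1 and KCTD12. DRG2, a GTP-binding protein, differed by -0.93, SKI, a repressor of TGF-β signalling, by -0.83 and ATG14, a subunit of the autophagy PI3-kinase complex, by -0.79. At the other end ARID3A differed by 0.77 and VGLL3 by 0.88, and in all 57 of 67 octamer genes (85.1%) had a lower median than in triplet 8, against 50.2% of all genes with a 3′UTR.

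Among the 160 genes at least 2-fold lower than triplet 8, 35 had at least 100 reads in all 6 libraries. Of the 34 of these with a 3′UTR, 11 (32.4%) held the hexamer, and 6 of the 11 are among the 65 genes from which TACACGT was picked. Of the 97 with fewer reads and a 3′UTR it was 14 (14.4%), and of all 131 it was 25 (19.1%), against 11.9% of all genes. The 11 include S100A4, a calcium-binding protein (-1.19), TRIB2, a pseudokinase (-1.21), and DCP2, the mRNA decapping enzyme (-1.17). The remaining 23 well-read genes did not hold it. CAPNS1, the small subunit of calpains, had 6.89, 6.98 and 6.82 against 8.51, 8.55 and 8.48, a difference of -1.63. LRRC8A, a subunit of the volume-regulated anion channel, had 4.34, 4.16 and 4.32 against 5.83, 5.74 and 5.74, and was below all other 42 libraries. PPTC7, a mitochondrial phosphatase, differed by -1.60 and PLAGL2, a zinc finger factor, by -1.43.

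For part of the 160, triplet 8 lay at the high end of the series. LCN2, the siderophore-binding lipocalin, had the lowest difference, -2.95, with 1.51, 0.75 and -0.14 against 3.64, 3.82 and 3.70. The other 39 libraries ran from -0.29 to 3.70 with a median of 1.57, so triplet 12 was near their middle to low end and triplet 8 at their top. ALDH1A3, a retinaldehyde dehydrogenase of which 32.1% of the exonic bases overlap a measured antisense gene, had 6.79, 6.65 and 6.79 against 8.56, 8.42 and 8.47, while the highest of the 39 others was 8.35. VSNL1, a neuronal calcium sensor, had 4.17, 4.09 and 4.30 against 6.03, 6.09 and 5.89, and MYB, a transcription factor of progenitor cells, had 2.59, 2.00 and 2.18 against 4.26, 4.09 and 4.11. TM4SF18 (-1.29) and S100A4 differed from the 39 libraries by only -0.022 and -0.087. In 156 of the 160 genes the median of triplet 12 lay below the median of the 39 libraries. Of the 160 genes, 12 had triplet 12 below all 39 libraries, and for 37 triplet 12 did not overlap the middle 80% of them.

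Few of the 89 higher genes were well measured. In 57 of 89 every one of the 6 libraries had fewer than 30 reads, as in 60 of the 160 lower genes, and only 3 had at least 100 reads in all 6. Those 3 were NEDD4, an E3 ubiquitin ligase, with 5.01, 5.35 and 5.27 against 4.13, 4.0 and 4.01, OSTM1, a lysosomal chloride channel subunit, with 4.69, 4.78 and 4.64 against 3.46, 3.38 and 3.65, and JUN, a subunit of AP-1, with 5.14, 5.48 and 5.03 against 4.08, 3.99 and 4.17. For none of the 89 did triplet 12 lie above all 39 other libraries. In 88 of the 89 its median lay above the median of those 39. JUN was the exception, with a median of 5.45 in the 39. All of the 15 genes with the largest positive differences had fewer than 60 reads in every library. CCDC74B, at the head, rests on 8, 5 and 4 reads against 1, 0 and 0, and MTTP on 3, 4 and 1 against 0, 1 and 0, so no fold is given for either. CFAP43, a protein of sperm and ciliary axonemes, had 42, 46 and 31 reads against 10, 17 and 6.

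The 16 genes above all 42 other libraries had small gaps, 0.17 at most, and none was 2-fold above triplet 8. FAM120A, an RNA-binding scaffold protein, had 9.01, 8.94 and 8.91 against 8.58, 8.41 and 8.44. MMAB, an enzyme of cobalamin metabolism, had 4.38, 4.59 and 4.33 against 3.82, 4.09 and 3.97, and CCDC113, a protein of cilia, 4.06, 4.26 and 4.08 against 3.23, 3.22 and 3.41. DCBLD2, a transmembrane receptor, had 11.05, 11.11 and 11.08 against 10.92, 10.79 and 10.82. NR1H3, the oxysterol receptor LXRα, differed by 0.57. Of these 16 genes, 1 holds the hexamer in its 3′UTR.

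Genes of epithelial identity were lower in triplet 12 than in triplet 8. All of the 8 listed markers passed the filter, 7 were lower with no overlap (background 16.7%) and none was 2-fold lower, and the median difference was -0.40, against -0.0023 over all genes. KRT8 and KRT18, which pair in the intermediate filaments of simple epithelia, lie next to each other on chromosome 12. KRT8 had 9.86, 9.53 and 9.64 against 10.61, 10.47 and 10.74, and KRT18 had 8.69, 8.60 and 8.66 against 9.51, 9.40 and 9.62. The 39 other libraries ran from 9.74 to 11.1 for KRT8 and from 8.34 to 10.1 for KRT18, so libraries 36 and 4 lay below all of them for KRT8, and triplet 12 lay within their range for KRT18. CLDN7, a claudin of tight junctions, differed by -0.50, CDH1, the epithelial cadherin, by -0.41, the intestinal transcription factor CDX2 by -0.39, EPCAM by -0.32 and CLDN4 by -0.26. KRT19, with values of 9.72, 9.73 and 9.53 against 9.50, 9.70 and 9.64, overlapped. Against the median of the 39 libraries the 8 markers had a median difference of -0.33 and 7 of 8 lay lower.

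Pseudogenes of the 2 keratins were lower too. Of 20 KRT8 and KRT18 pseudogenes past the filter, chosen after their values were seen, 18 were lower with no overlap, 8 of these at least 2-fold, with a median difference of -0.97. KRT8P3, the one with the most reads, had 6.09, 5.88 and 5.88 against 6.72, 6.64 and 6.91. Between 0% and 28.2% (median 1.77%) of their 50-base stretches were identical to the parent transcript, and whether their counts hold reads of the parents was not tested.

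Mesenchymal genes were higher than in triplet 8. Of 8 genes 4 were listed, and 3 were higher with no overlap (background 15.1%). VIM, vimentin, had 3.07, 3.26 and 2.81 against 2.58, 2.36 and 2.15, FN1, fibronectin, had 1.54, 1.93 and 2.09 against 1.39, 1.06 and 0.89, and ZEB1, a repressor of CDH1, had 2.35, 2.90 and 2.65 against 1.61, 1.17 and 2.12. All 3 are weakly expressed here, with 16 to 110 reads per library. The median difference of the 4 genes was 0.79 from triplet 8 and 0.035 from the 39 other libraries, where VIM differed by 0.75, ZEB1 by 0.044 and FN1 by 0.025.

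**Figure D5:**
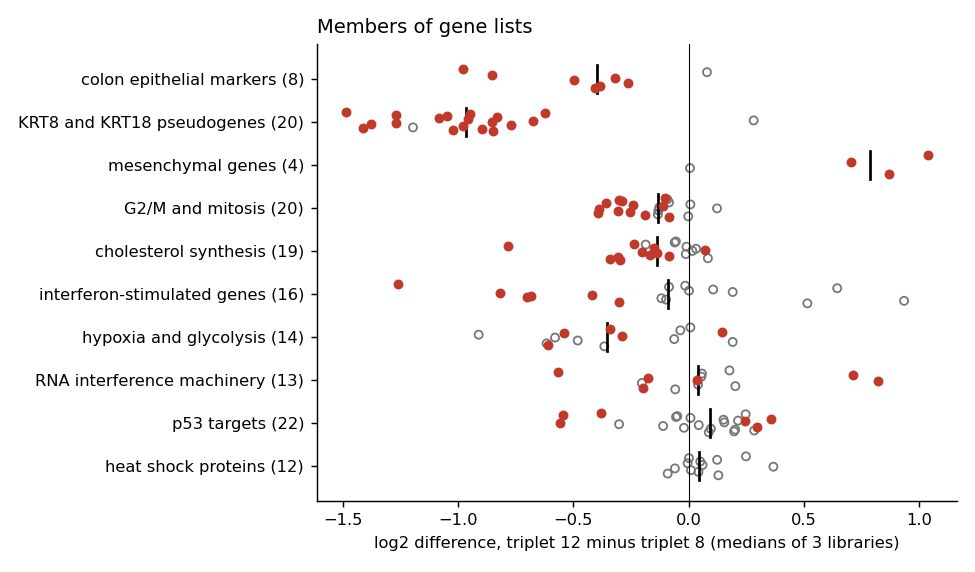
Log2 difference of triplet 12 from triplet 8 for each member of 9 gene lists and for the keratin pseudogenes, with the number of members past the filter in brackets. Filled points mark genes whose 3 and 3 values do not overlap, open points the others, and bars the median: epithelial markers (-0.40) and keratin pseudogenes (-0.97) lie left of 0, mesenchymal genes (0.79) to the right, and heat shock genes (0.047) have no filled point.

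Genes in the pathway of RGS18 lay on both sides of triplet 8. Over all genes compared, 15.1% were higher and 16.7% lower with no overlap. RGS proteins act on Gα subunits, which pass the signal from receptors to adenylyl cyclases, phospholipase C and other effectors. Of 21 RGS genes, 12 were listed, 1 higher and 2 lower with no overlap. RGS2, a regulator of Gαq, had 2.89, 2.82 and 3.10 against 3.87, 3.86 and 3.64, RGS5, a regulator known from pericytes, had 2.20, 1.96 and 2.12 against 1.05, 1.42 and 1.13, and RGS3 differed by -0.23. None of the 3 left the range of the 39 other libraries. Of 20 listed G protein subunits 2 were higher and 4 lower, with GNAQ at -0.47, GNA12 at -0.26, GNA11 at 0.22 and GNA15 on 1 to 4 reads per library. Of 22 effectors and receptor kinases 6 were higher and 6 lower. PLCB4, a phospholipase C isoform, had 1.99, 1.85 and 1.99 against 2.98, 3.12 and 3.30, a difference of -1.13, ARRB1, an arrestin, differed by -0.51, ADCY7, an adenylyl cyclase with 41.8% of its exonic bases under a measured antisense gene, by -0.50 and PRKACA, the catalytic subunit of protein kinase A, by 0.38.

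Among factors of RNA interference, DICER1 and TNRC6A were higher. DICER1, the enzyme that cuts miRNA precursors, had 7.19, 7.07 and 7.34 against 6.37, 6.09 and 6.46, and TNRC6A, a partner of Argonaute, had 7.31, 7.16 and 7.41 against 6.59, 6.30 and 6.62. The values of triplet 12 lay within the 39 other libraries, which reached 7.43 and 7.62. TNRC6C differed by -0.57 and AGO2 by -0.20. Of 13 genes in the list 3 were higher and 3 lower with no overlap (background 15.1% and 16.7%), with a median of 0.042.

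Of 20 G2/M genes 12 were lower and none higher with no overlap (background 16.7% and 15.1%). Their median difference was -0.13 from triplet 8, with -0.39 as the lowest, and -0.064 from the 39 other libraries. CDK1, the mitotic kinase, had 7.12, 7.09 and 7.29 against 7.51, 7.53 and 7.47, and CCNA2, cyclin A2, 7.45, 7.31 and 7.49 against 7.94, 7.81 and 7.84. Of 19 genes of cholesterol synthesis and uptake 10 were lower and 1 higher, with a median of -0.14 from triplet 8 and -0.056 from the 39 others. CYP51A1, a sterol demethylase, differed by -0.30 from triplet 8 and by 0.060 from the 39 other libraries. Of 18 genes of DNA replication 4 were lower and 1 higher, with medians of -0.060 and 0.040 from these references and CDC6, a licensing factor, at -0.59.

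Of 16 listed interferon-stimulated genes 6 were lower and none higher with no overlap (background 16.7% and 15.1%, also for the lists that follow). Their median difference was -0.091 from triplet 8 and -0.0027 from the 39 other libraries. USP18, a protease that removes ISG15, had 1.06, -0.47 and 0.37 against 1.39, 2.18 and 1.63, and IFIT1 and IFIT2 differed by -0.70 and -0.68 from triplet 8 and by 0.18 and 0.19 from the 39 others, all 3 on fewer than 60 reads per library. Of 14 genes of hypoxia and glycolysis 4 were lower and 1 higher, at a median of -0.35 from triplet 8 and -0.19 from the 39 others. P4HA1, a collagen prolyl hydroxylase, differed by -0.54 and ANKRD37, with 40.3% of its exonic bases under a measured antisense gene, by -0.61. Of 9 NF-κB targets 4 were lower and none higher (ICAM1 -0.67, NFKBIA -0.50), at a median of -0.20 from triplet 8 and -0.050 from the 39 others. Of 13 Wnt targets 4 were lower and none higher (CD44 -0.49, SOX9 -0.35), with medians of -0.16 and -0.013. Of 16 genes of MAPK output 3 were lower and none higher (ETV5 -0.43), with medians of -0.15 and -0.15. Of 15 listed targets of ATF4, the factor of the integrated stress response, 6 were higher and 2 lower, at a median of 0.15 from triplet 8 and 0.35 from the 39 libraries, and 2 of the 15 lay below the median of the 39. Of 22 p53 targets 3 were higher and 3 lower, at a median of 0.092 from triplet 8 and -0.13 from the 39 others. Of these 22, 16 lay below the median of the 39, and MDM2, the ubiquitin ligase of p53, differed from triplet 8 by -0.56. BCL2 family genes had 3 higher and 2 lower of 15 (BAK1 0.43, BCL2 -0.45), with medians of 0.18 from triplet 8 and -0.078 from the 39 others. Histone deacetylases had 3 higher and 3 lower of 11 (HDAC8 0.37, HDAC1 -0.19), with medians of 0.016 and 0.036. YAP and TGF-β targets had 2 higher and 1 lower of 11, with medians of -0.00013 and -0.21, and 9 of the 11 lay below the median of the 39. No member of the lists of heat shock proteins (12 listed), metallothioneins (4), mitochondrially encoded genes (13) or goblet and absorptive differentiation (1) was apart from triplet 8. From the 39 other libraries their medians were 0.028, 0.31, -0.18 and 0.056, in the same order. All 13 mitochondrially encoded genes lay below the median of the 39, as did 6 of 12 heat shock genes and 1 of 4 metallothioneins.

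Of the 11 siRNA targets in the matrix, 3 were lower and 1 higher with no overlap (background 16.7% and 15.1%). The differences ran from -0.46 to 0.65. NFYA, the DNA-binding subunit of NF-Y, had 5.18, 5.05 and 5.30 against 5.69, 5.49 and 5.64, where the lowest of the 39 others was 4.02. JAK2, a cytokine receptor kinase, had 3.07, 3.20 and 2.93 against 3.33, 3.45 and 3.41, where others reached -2.05. EIF3L differed by -0.19 and PSMD13, a subunit of the proteasome, by 0.20, and CCNK, cyclin K, of which 59.5% of the exonic bases overlap a measured antisense gene, by 0.00145. DPPA5, RGS18 and TGM5 were not listed.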

How the data were processed

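Expression was measured by RNA-seq in HCT116-VR cells. The authors mapped the reads with TopHat (1.4.1 in the submitters' processing notes) to GRCh37, made gene counts with HTSeq for Ensembl 67, normalised with limma-voom, and deposited log2 CPM for 15698 genes in 45 libraries. From these values 100% of the counts came back within 0.001 of a whole read. The log2 value of 3 reads, which 0 reads would allow, lies between -2.50 and -1.07 and covers counting error only. The kit does not mark strand.

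Genes that reached log2 0 in 3 or more libraries were kept, and 254 were removed. Medians of 3 libraries and overlap of their ranges were compared (Python 3.11.15, pandas 2.3.3). No test was run, since no label ties the columns to conditions. The members, the 26 gene lists and the comparisons were chosen with earlier results of these data known. Named genes were the 15 highest and 15 lowest 2-fold genes, the 10 widest gaps on each side, list members and siRNA targets. The octamer, its genes, the other genes below the 42 libraries, keratin pseudogenes and 2-fold genes with at least 100 reads were chosen after their values were seen. 3′UTRs are those of GENCODE 44 canonical transcripts on GRCh37 (pysam 0.24.0), and 15366 identifiers (97.9%) had a symbol. The calls and the ranking of heptamers by mean shift were checked on simulated data, and the search by excess was not. Alternatives varied the filter, reads added, scaling, fold, reference and libraries. A few named genes are not reported here.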

Additional observations from a re-analysis of the deposited data

How the results depend on the processing

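Libraries were not paired by replicate, because replicate numbers come only from the sample list that the target genes went against. Matched by column position, a choice made after seeing the data, 105 genes had a median difference of at least 2-fold and all 3 differences higher, and 175 lower. Genes at least 2-fold higher than in triplet 8 numbered 28 and lower 94 with a filter at log2 2, 364 and 576 at 1.5-fold, and 15 and 34 against the 39 other libraries. Higher genes numbered 53 with 2 reads added and 165 with overlap allowed. Leaving out 1 of the 6 libraries gave 99 to 156 higher and 171 to 209 lower genes, with the 156 reached without library 40. Genes above the other 42 libraries numbered 25 without library 46, 29 without library 36 and 39 without library 4, and those below 74 to 93. With a gap of 0.5 there were 0 above and 4 below. Scaling moved the median of all genes by less than 0.1. For the octamer genes, with alternatives chosen after seeing the data, the difference from the 39 libraries relative to genes without the hexamer was -0.30. It was -0.24 without the genes below the 42, -0.28 for 3′UTRs of 1500 to 5000 bases, -0.33 against triplet 8 and -0.31 to -0.28 with 1 library left out. Against the 39 libraries the sign turned for CYP51A1 (0.060), IFIT1 (0.18), IFIT2 (0.19), JUN (-0.31) and SKIL (-0.044), 5 of 143 named genes, and 88 others moved by more than the spread between libraries. The 10 other alternatives turned no sign and moved 63 of 1430 values. The cause was not tested. Differences on few reads are limited by depth.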

Other observations

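Of the 63 genes with a 3′UTR below the other 42 libraries, 33 hold no ACACGT. Among them are CCNC, cyclin C, with a difference of -0.56 from triplet 8, SDCBP, syntenin (-0.84), TBP, the TATA-binding protein (-0.62), and VCL, vinculin (-0.17). In these 33 3′UTRs the heptamers with the largest excess were rich in A and T, led by TATTTTA in 23 (69.7%) against 35.6% of all 3′UTRs without the hexamer. Next to the 2 heptamers of the octamer, the heptamer ACTCGTA had the third lowest mean shift against the 39 libraries, -0.14 over 156 3′UTRs, and was in 2 of the 63.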
